A study of Arabidopsis thaliana with 6 samples.

Results

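COR15A, COR15B, COR47 and LTI30 are 4 genes named for their induction by cold. They were taken as the probe sets that the platform annotation pairs with these symbols, which gave 4 probe sets, 1 per gene, of 22810 on the array. Each of them was paired with 1 gene only, and all 4 passed the filter on dim values. RNA was profiled on Affymetrix ATH1 arrays, which read a transcript with a set of short probes, in 3 ASL9-ox and 3 wildtype samples of Arabidopsis thaliana. The ASL9-ox seedlings carry a transgene for overexpression of ASL9, a transcription factor of the LBD family, and neither its promoter nor the number of lines is given in the sources used here. The wildtype seedlings were of the accession Col-0. Both groups were 2-week-old seedlings raised in a growth chamber on upright Murashige and Skoog agar, and their tissue was labelled as aerial parts, whereas the extraction text speaks of seedlings as a whole. The labels name no cold treatment in either group, so the comparison concerns the levels of these genes without a stated cold stimulus.

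In the cold, CBF (also called DREB1) transcription factors bind a short element in the promoters of COR genes and raise their transcription, and abscisic acid and drought act on many of the same genes through other factors. COR15A and COR15B encode small hydrophilic proteins of the chloroplast stroma that protect membranes during freezing. COR47 and LTI30 (also known as XERO2) encode dehydrins, hydrophilic proteins that stabilise proteins and membranes when water is lost. COR15A (AT2G42540) and COR15B (AT2G42530) are close relatives and neighbours in the genome, with 0 genes annotated between them in RefSeq assembly TAIR10.1. Whether the probe set of 1 of them also reads transcripts of the other was not tested, because probe sequences were not used here.

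All values are linear array signals in arbitrary units. Between 36.8% and 37.6% of the probe sets on the ASL9-ox arrays and between 36.9% and 37.9% on the wildtype arrays lay below a signal of 16. Calls of presence or absence were not used here, so a signal near or below 16 could not be set against background. ASL9 itself had 0 probe sets paired with it, so the overexpressed gene gave no check of the labels and each direction rests on them. The array of wildtype replicate 2 stood apart. Among probe sets on which the other arrays of the group differed by less than 0.3 (log2), 71 exceeded their mean by more than 1 on this array. The same count was at most 3 on any ASL9-ox array and at most 2 on the other wildtype arrays. Results are therefore also given without it. In whole tissue, fewer cells of a type and less RNA per cell cannot be told apart.

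The 4 genes did not move together. COR15A and COR15B were higher in ASL9-ox seedlings, COR47 differed little, and LTI30 was lower. COR15A had signals of 203, 140 and 282 on the ASL9-ox arrays, against 69.7, 47.4 and 51.1 on the wildtype arrays. Its lowest ASL9-ox signal was above its highest wildtype signal, and within each group 1 array lay well above the rest, replicate 3 among the ASL9-ox arrays and replicate 1 among the wildtype arrays. The means were 208 ± 71.1 and 56.1 ± 11.9 (SD, n = 3 each), a ratio of 3.71. On the log2(signal + 16) scale, where the added 16 damps noise at low signals and understates the change of dim genes, the log2 fold change (ASL9-ox over wildtype) was 1.60 ± 0.21 (SE, 95% interval 1.12 to 2.08), with an adjusted p of 0.000329 in limma's moderated test.

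COR15B showed the larger change. Its signals were 356, 247 and 547 on the ASL9-ox arrays, against 53.5, 23.5 and 26.0 on the wildtype arrays. The groups lay far apart, and the same arrays were high and low within each group as for COR15A. The means were 383 ± 152 in ASL9-ox and 34.3 ± 16.6 in wildtype (SD, n = 3 each), a ratio of 11.2. The log2 fold change was 2.97 ± 0.28 (SE, 95% interval 2.34 to 3.60, limma adjusted p = 4.16e-05). Since 2 of the wildtype signals lay near 26 or below, the size of this change depends on the number added, and it was 3.47 with an added 1 and 2.14 with an added 64. Without wildtype replicate 2 the log2 fold changes were 1.51 for COR15A and 2.82 for COR15B.

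COR47, an acidic dehydrin, had the most even signals of the 4 genes. It read 438, 467 and 448 on the ASL9-ox arrays, against 469, 512 and 477 on the wildtype arrays. The highest ASL9-ox signal lay just under the lowest wildtype signal, so the groups did not overlap, but the distance between them was small. The means were 451 ± 14.8 in ASL9-ox and 486 ± 22.6 in wildtype (SD, n = 3 each). The log2 fold change of -0.10 ± 0.07 (SE) did not pass the threshold of 0.05 (limma adjusted p = 0.255), and its 95% interval ran from -0.26 to 0.05. Its size depended on the scaling: it was -0.20 when arrays were centred on control transcripts of bacterial and phage origin, spiked in for hybridization, and -0.07 with quantile normalization. Without wildtype replicate 2 it was -0.07.

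LTI30, a basic dehydrin that binds membranes, was lower in ASL9-ox. It read 31.7, 30.9 and 37.6 on the ASL9-ox arrays, against 282, 244 and 259 on the wildtype arrays. Arrays of the same group lay close together and the groups were far apart. The means were 33.4 ± 3.69 in ASL9-ox and 262 ± 19.5 in wildtype (SD, n = 3 each), and the wildtype mean was 7.84 times the ASL9-ox mean. The log2 fold change was -2.49 ± 0.09 (SE, 95% interval -2.70 to -2.29, limma adjusted p = 1.31e-07). It was -2.54 without wildtype replicate 2, -2.94 with an added 1 and -1.74 with an added 64. LTI30 had the smallest adjusted p of the 4 genes, although COR15B had the larger log2 fold change in size.

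**Figure D1:**
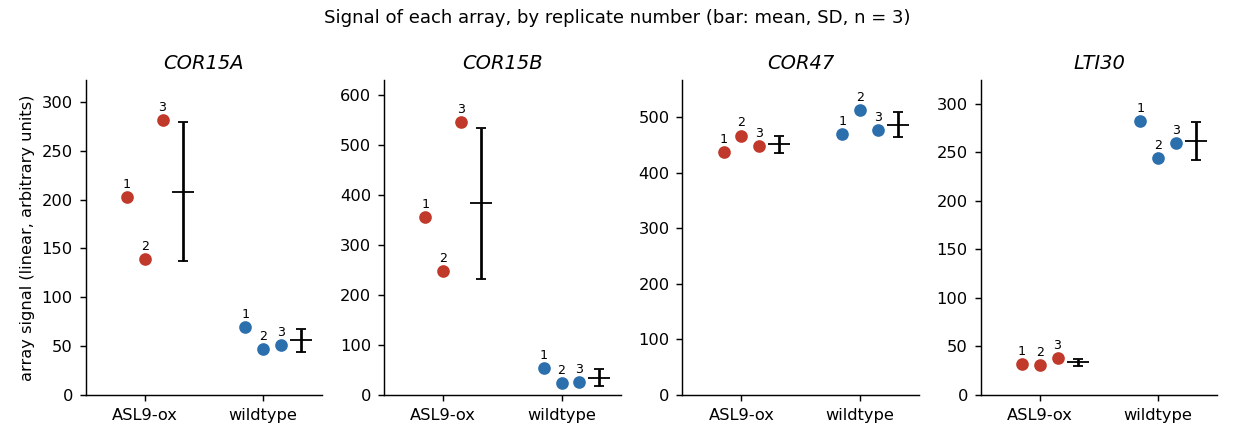
Signals of the 4 genes on each array (linear axes from 0, arbitrary units). Points carry the replicate number, and bars give the mean and SD of the 3 arrays of each group. COR15A and COR15B lie higher on all ASL9-ox arrays, LTI30 lies lower on all of them, and the COR47 groups are separated only narrowly (467 against 469).

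Of the 4 genes, 2 rose and 1 fell. Among all 17059 probe sets tested, 41.6% passed the same threshold, 24.6% as higher in ASL9-ox and 17% as lower. Of these calls 59.2% were therefore higher, and 43.2% were when arrays were centred on the hybridization controls. The groups did not overlap for any of the 4 genes (4 of 4), and the same was true of 54.0% of all probe sets tested, 32.8% with ASL9-ox higher and 21.2% with ASL9-ox lower. With so broad a difference between the groups, and only 4 genes, these counts say little about the genes as a set, so the sizes of the changes are given too. The 4 genes were chosen with earlier results of these data known, so large changes among them are no independent evidence. A change of at least 2-fold that passed the threshold was found for 7.14% of all probe sets, and COR15A, COR15B and LTI30 were among these. Ranked by log2 fold change, COR15B had the 6th highest value of the 17059 and COR15A the 108th. LTI30 had the 135th lowest. The median of the 4 genes was 0.75, beside 0.08 for all probe sets tested, but no single gene lay near that median.

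**Figure D2:**
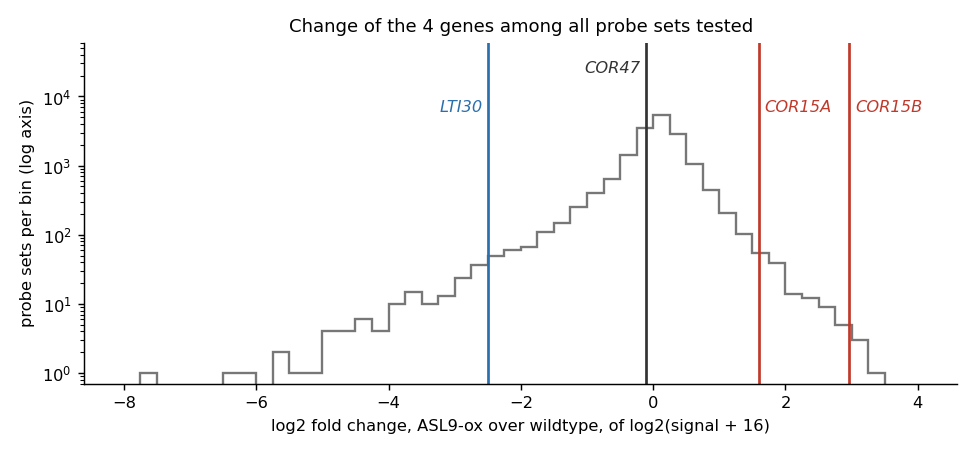
Number of probe sets (log axis) in bins of the log2 fold change, ASL9-ox over wildtype, for all 17059 tested, with vertical lines at the 4 genes. COR15B (2.97) stands at the upper edge of the distribution, COR15A (1.60) on its upper flank, COR47 (-0.10) at its centre and LTI30 (-2.49) on its lower flank.

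How much the 4 genes differed from one another was examined within arrays, by taking the difference of log2(signal + 16) between 2 genes on the same array and comparing it between the groups. This was done for all 6 pairs with an exact two-sided permutation test over the 20 splits of the arrays. The smallest p that 3 arrays against 3 allow is 0.1, and every pair gave this value (0.1 also after Benjamini-Hochberg adjustment over the 6), so no pair could pass. The change of COR15A was smaller than that of COR15B by 1.37 on the log2 scale in the means, and the within-array difference, COR15A minus COR15B, lay between -0.92 and -0.76 on the ASL9-ox arrays and between 0.30 and 0.68 on the wildtype arrays. With an added 1 in place of 16 the difference in change was -1.63, and with an added 64 it was -0.99. For the dehydrins the difference COR47 minus LTI30 lay between 3.11 and 3.37 on the ASL9-ox arrays and between 0.70 and 1.02 on the wildtype arrays. In all 6 pairs the arrays of one group lay wholly apart from those of the other, which restates the p of 0.1. The pairs reuse 4 genes that were chosen with earlier results of these data known. Pairs of other genes were not examined in this way, so no share stands beside this count. It is therefore no evidence on the 4 genes as a set.

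The 4 genes also differed in how far replicates spread. The residual SD within groups on the log2(signal + 16) scale was 0.50 for COR15B and 0.37 for COR15A, against a median of 0.13 over all probe sets tested. Those of LTI30 and COR47 were 0.10 and 0.06. In these terms COR15B was more variable than 99.2% of all probe sets tested and COR15A than 98.2%, whereas COR47 was more variable than 7.78% and LTI30 than 35.5%. For COR15A the coefficient of variation of the signal was 34.2% in ASL9-ox and 21.3% in wildtype. For COR47 it was 3.28% in ASL9-ox and 4.66% in wildtype.

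The spread of both COR15 genes followed the same arrays. Relative to the group mean on the log2(signal + 16) scale, COR15A stood at 0.46 on ASL9-ox replicate 3 and at -0.48 on replicate 2, and COR15B at 0.56 and -0.53 on these 2 arrays. On wildtype replicate 1 COR15A stood at 0.26 and COR15B at 0.51. Among the other cold and clock genes, GI stood at 0.34 and COR27 at 0.33 on ASL9-ox replicate 3, and at -0.51 and -0.49 on replicate 2. On wildtype replicate 1 GI stood at 0.15, whereas COR27 was lowest there, at -0.18. GI (GIGANTEA) encodes a clock protein that also acts in cold tolerance, and COR27 a cold-induced component of the clock. They were singled out after their values were seen, and other genes of the lists differed in this. FIO1 had the same order with smaller deviations (0.17 on replicate 3 and -0.17 on replicate 2). STZ stood lower still on replicate 2 (-0.75) but was highest on replicate 1 (0.62). TIL stood at -0.09 on replicate 3 and 0.10 on replicate 2, and XCT (0.16), TIC (0.12) and the drought list gene HVA22C (0.17) were highest on replicate 2. Of all probe sets tested, 17.3% had ASL9-ox replicate 3 as the highest and replicate 2 as the lowest of its group, and 6.76% also had wildtype replicate 1 as the highest of the wildtype arrays. LTI30 had this order too, but with deviations of only -0.10 to 0.12.

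**Figure D3:**
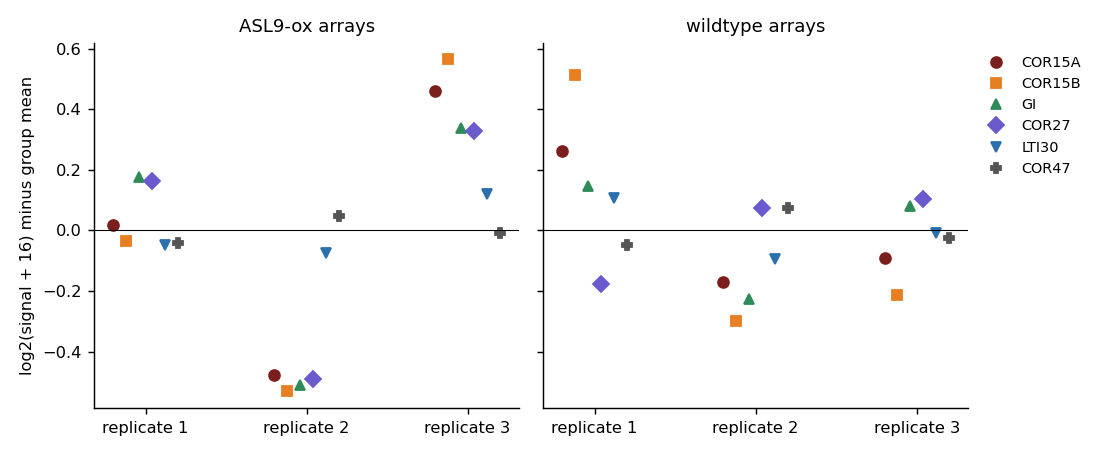
Deviation of log2(signal + 16) from the mean of the group for 6 genes on each ASL9-ox array (left) and each wildtype array (right). GI and COR27 were picked after their values were seen, and list genes with other orders are not drawn. COR15A, COR15B, GI and COR27 lie between -0.53 and -0.48 on ASL9-ox replicate 2 and between 0.33 and 0.56 on replicate 3, whereas COR47 and LTI30 stay between -0.10 and 0.12 on all arrays.

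The genes whose pattern over the 6 arrays lay nearest to each of the 4 were taken by Euclidean distance between centred log2(signal + 16) values, among probe sets paired with 1 gene. For COR15A they were AT5G12940 (distance 0.38), AT1G52770 (0.39) and CCL (0.40). CCL, for CCR-LIKE, is a clock-controlled gene. It read 2932, 2140 and 2981 on the ASL9-ox arrays, against 979, 840 and 849 on the wildtype arrays. Replicate 2 was the lowest ASL9-ox array and replicate 1 the highest wildtype array. Because CCL was chosen by its nearness to COR15A on these same arrays, the shared order is no separate evidence. The wildtype signals of AT5G12940 (at most 7.28) and AT1G52770 (at most 10.3) lay below 16. With an added 1 in place of 16, their log2 fold changes were 3.21 and 2.51, against 1.84 for COR15A. Their likeness to COR15A in the size of the change thus depended on the added 16. For COR15B the nearest genes were AT5G55450 (0.49), AT3G22240 (0.51) and AT1G19960 (0.81). AT3G22240 read 2761, 1993 and 3374 on the ASL9-ox arrays, against 614, 300 and 243 on the wildtype arrays.

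LTI30 lay nearest to EXPA4 (0.24), which encodes a cell wall loosening expansin, then to AT5G23830 (0.34) and AT1G26930 (0.36). The ASL9-ox signals of AT5G23830 were at most 3.45. With an added 1 in place of 16, the log2 fold change was -4.88 for AT5G23830 and -3.33 for AT1G26930, against -2.94 for LTI30. EXPA4 read 162, 181 and 195 on the ASL9-ox arrays, against 1100, 1050 and 928 on the wildtype arrays. COR47 lay nearest to AT5G05230 (0.06), AT5G20060 (0.07) and AT3G07090 (0.07), none of which passed the threshold (0 of 3; unadjusted p of 0.143, 0.174 and 0.289). As between the members themselves, the distance of COR15A from COR15B was 1.71. Nearness in this measure depends both on the size of the change between the groups and on the pattern of the arrays within groups. These 2 parts were not separated. For genes with signals below 16 in a group, nearness also depends on the number added.

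The surrounding pathway was sampled thinly, because the annotation left most of its genes without a probe set paired with them alone. Of 199 other genes in lists of CBF pathway regulators, cold-regulated effectors, dehydrin and LEA (late embryogenesis abundant) genes, abscisic acid and drought genes and clock genes, 17 had such a probe set and 15 were tested. Of these, 3 rose, 3 fell and 9 did not pass, with a median log2 fold change of -0.08. The 6 calls among 15 are close to the 41.6% called among all probe sets tested, so this count sets the lists apart in neither direction. Without wildtype replicate 2, 2 rose and 2 fell. Calls also became fewer among all 17059 probe sets tested when that array was left out. There, 3425 rose and 2539 fell, in place of 4203 and 2893. None of the genes for CBF factors themselves was among the 17.

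Of the CBF pathway regulators, 3 of 46 genes were measured and 1 rose, beside 24.6% of all probe sets tested. GI read 139, 80.6 and 158 on the ASL9-ox arrays, against 69.2, 49.7 and 65.3 on the wildtype arrays. All ASL9-ox signals of GI lay above the wildtype ones, with a log2 fold change of 0.84 ± 0.20 (SE, limma adjusted p = 0.00909). SIZ1, a SUMO ligase that acts on the CBF activator ICE1, averaged 195 ± 5.04 in ASL9-ox and 180 ± 2.76 in wildtype (log2 fold change 0.11, adjusted p = 0.247). STZ (ZAT10), a cold- and stress-induced zinc finger repressor, ran from 18.2 to 72.5 in ASL9-ox and from 36.5 to 77.5 in wildtype. Its log2 fold change of -0.31 did not pass (adjusted p = 0.466), and without ASL9-ox replicate 2 it was 0.06.

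Of the other cold-regulated effectors, 2 of 48 genes were measured. TIL, a temperature-induced lipocalin that protects membranes, fell: it read 664, 713 and 623 on the ASL9-ox arrays, against 795, 940 and 861 on the wildtype arrays (log2 fold change -0.37 ± 0.08, SE, limma adjusted p = 0.00674). COR27 read 73.4, 40.9 and 84.3 on the ASL9-ox arrays, against 40.2, 50.9 and 52.2 on the wildtype arrays. The groups overlapped because ASL9-ox replicate 2 was low. Its log2 fold change was 0.33 (adjusted p = 0.201), and it was 0.58 without ASL9-ox replicate 2 (adjusted p = 0.00628, and 0.00628 to 0.532 over all alternatives). The clock genes FIO1 (0.16), XCT (0.16) and TIC (-0.08) did not pass. Of 5 clock genes tested 1 passed, GI, beside 41.6% of all probe sets tested. With 5 genes this count says little about the clock.

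The dehydrin and LEA list held 8 measured genes besides the 4, and 6 were tested, of which 1 rose and 2 fell, beside 41.6% called among all probe sets tested. HIRD11 (AT1G54410), a small dehydrin, read 2517, 2368 and 2515 on the ASL9-ox arrays, against 1411, 1349 and 1382 on the wildtype arrays. It rose by 0.83 ± 0.06 (SE) on the log2 scale (limma adjusted p = 7.76e-06). Of the dehydrins, HIRD11 thus rose, LTI30 fell, and COR47 and the dehydrin gene LEA (AT2G21490) did not pass.

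LEA4-5, which encodes a late embryogenesis abundant protein induced by drought, read 1.21, 1.42 and 0.502 on the ASL9-ox arrays, against 28.5, 127 and 27.9 on the wildtype arrays. The ASL9-ox signals lay near 0, and wildtype replicate 2 lay far above the other wildtype arrays. Its log2 fold change was -1.94 ± 0.39 (SE, limma adjusted p = 0.00349), and it was -1.38 without wildtype replicate 2 (adjusted p = 5.18e-05). The value ranged from -4.57 with an added 1 to -0.85 with an added 64. AT2G44060, annotated as LEA26, averaged 683 ± 20.5 in ASL9-ox and 788 ± 19.8 in wildtype, with a log2 fold change of -0.20 (limma adjusted p = 0.0289). This call was lost under 8 of 17 alternatives, namely quantile normalization, the fit without an intensity trend, the fit with the replicate block (adjusted p = 0.0769 in limma), and when any of ASL9-ox replicates 1 and 2 or wildtype replicates 1, 2 and 3 was left out (0.0119 to 0.0806 over all alternatives).

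The other LEA genes turned on 1 array. LEA read 189, AtLEA4-1 81.4 and AT3G15670 309 on wildtype replicate 2, and on the other 5 arrays their signals were at most 10.9, 9.22 and 5.06. M10 and LEA18, which were below the filter, showed the same with 27.6 and 16.8 there and at most 1.79 and 1.34 elsewhere. None of the 3 tested genes passed (0 of 3 in limma; unadjusted p below 0.05 in 0). For LEA and AT3G15670 the log2 fold changes of -0.83 and -1.36 became 0.26 and 0.03 without wildtype replicate 2. The median of the 6 tested genes of the list was -0.88 with that array and -0.08 without it. In the list of seed maturation genes the summed signal of the 5 measured genes was 14.4 to 15.0 in ASL9-ox and 10.6 to 1646 in wildtype, where the highest value is that of replicate 2. The signals of the 4 cold genes did not follow this array: COR15A, COR15B and LTI30 had their lowest wildtype signal on it, and COR47 its highest, by a small margin.

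**Figure D4:**
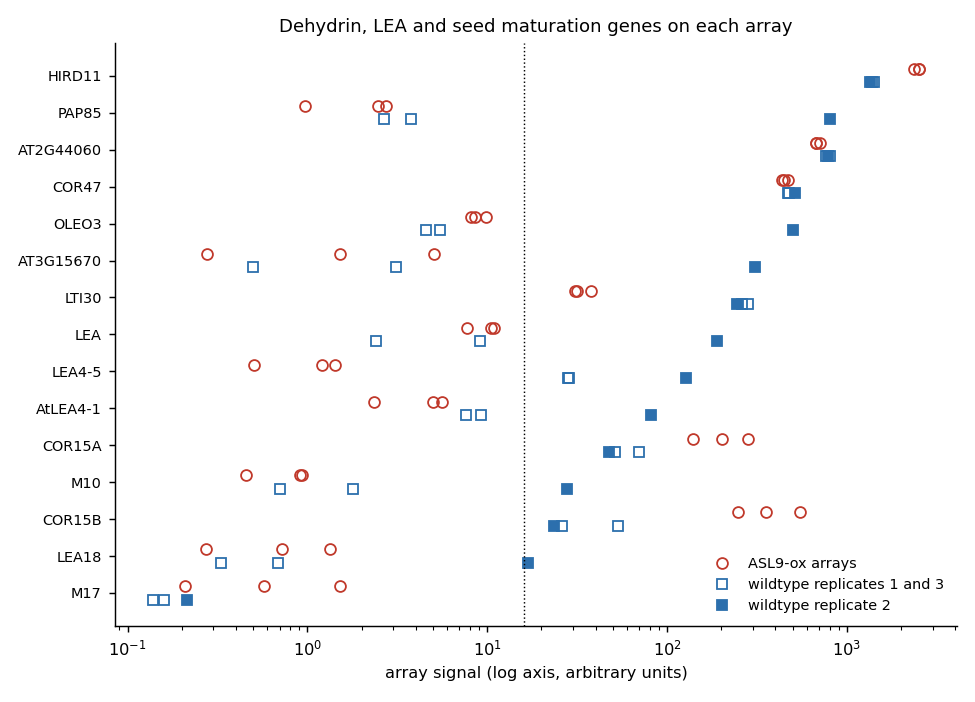
Signals of the measured dehydrin, LEA and seed maturation genes on each array (log axis, arbitrary units, dotted line at 16). Open circles are ASL9-ox arrays, open squares wildtype replicates 1 and 3, and filled squares wildtype replicate 2. That array reads far above the other 5 for PAP85, OLEO3, AT3G15670, LEA, AtLEA4-1, M10 and LEA18, but lies with the other wildtype arrays for COR15A, COR15B, COR47 and LTI30.

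From the abscisic acid and drought list only HVA22C was measured (1 of 61), and it rose. It read 168, 205 and 171 on the ASL9-ox arrays, against 154, 129 and 126 on the wildtype arrays (log2 fold change 0.37 ± 0.10, SE, limma adjusted p = 0.0186). The call was lost without ASL9-ox replicate 2, without wildtype replicate 2 and without wildtype replicate 3, and with centring on the hybridization controls (0.0109 to 0.0978 over all alternatives). A further 7 genes were added later because RefSeq names them for cold, drought, desiccation or LEA proteins, and of the 6 tested 3 rose, beside 24.6% of all probe sets tested. With centring on the hybridization controls 1 of the 6 rose, and among all 17059 probe sets tested 2353 rose in place of 4203. DI19, for drought-induced 19, averaged 2052 ± 184 in ASL9-ox and 1231 ± 63.5 in wildtype (log2 fold change 0.73 ± 0.08, SE, limma adjusted p = 9.70e-05). RD2 had a log2 fold change of 0.32 (adjusted p = 0.0246) and AT2G46140, annotated as LEA27, one of 0.35 (0.0269), and neither passed when arrays were centred on the hybridization controls (limma adjusted p = 0.172 and 0.119). RD2 missed it without ASL9-ox replicate 1 or 3 and without wildtype replicate 1 or 3 (0.0026 to 0.172 over all alternatives). AT2G46140 missed it without ASL9-ox replicate 1 or 3, without wildtype replicate 3 and without the filter (0.0179 to 0.119). DI21 (0.05), FRO1 (0.09), which is needed for cold induction of COR genes, and SRC2 (-0.06) did not pass, and DOR was below the filter.

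**Figure D5:**
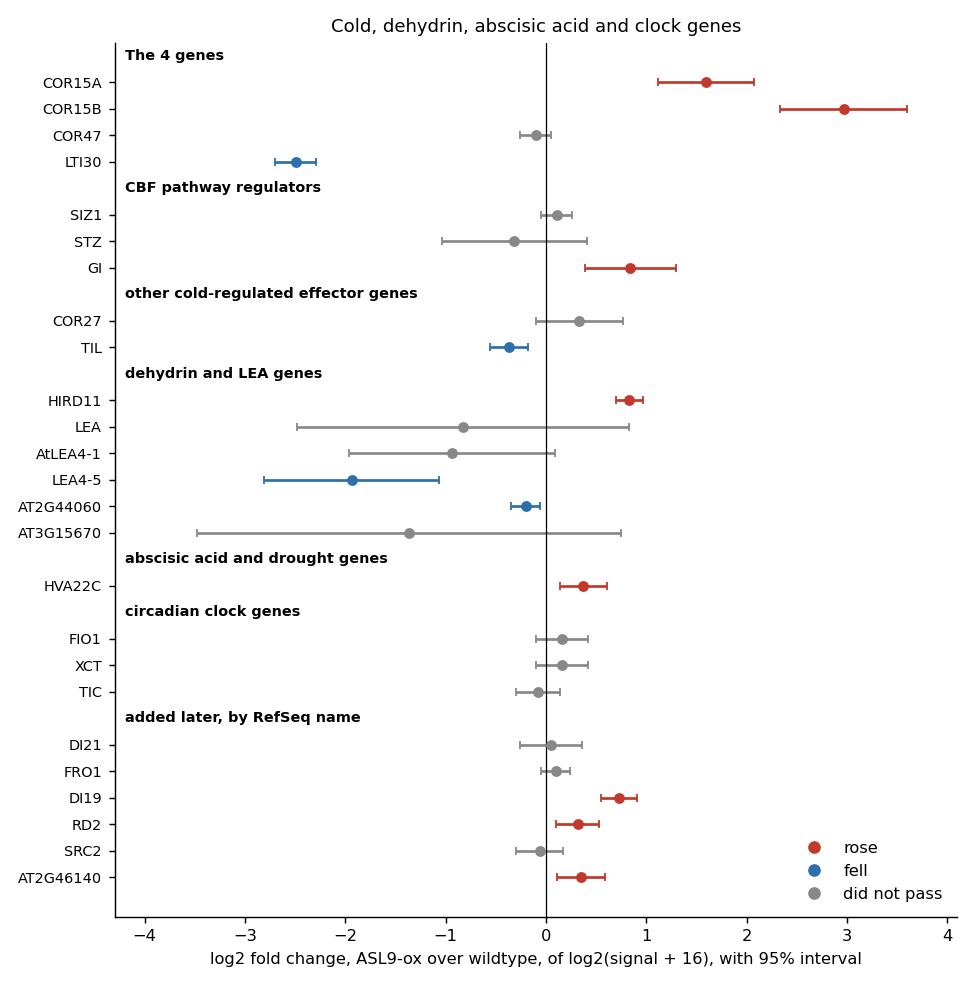
Log2 fold change, ASL9-ox over wildtype, with its 95% interval for the 4 genes and for the tested genes of the related lists. Red marks genes that rose, blue genes that fell and grey genes that did not pass. Of the genes plotted, which leave out the seed, root and leaf lists, COR15B (2.97) and COR15A (1.60) lie highest and LTI30 (-2.49) lowest. The widest intervals plotted belong to AT3G15670 and LEA, which were high on wildtype replicate 2 alone.

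The tissue label was set against marker genes. All 8 measured leaf photosynthesis genes rose, beside 24.6% of all probe sets tested. Their summed signal was 26212.5 to 27730 in ASL9-ox and 18226 to 20716 in wildtype. With quantile normalization, with centring on the median or on the hybridization controls, and without the filter, 6 of the 8 rose. The number was also 6 without the intensity trend, with the replicate block, and when any array other than wildtype replicate 1 was left out. Of 4 measured genes in the root list, EXPA7 and EXPA18, which mark root hair cells, were below 16 on all arrays. The beta-glucosidase gene PYK10, known from roots and hypocotyls, read 408, 429 and 453 on the ASL9-ox arrays, against 3168, 2847 and 3149 on the wildtype arrays. RTH, the last gene of that list, is a homologue of an ethylene signalling gene and marks no root cell. Its log2 fold change was 0.34 (limma adjusted p = 0.0472), in the opposite direction to PYK10. The summed signal of these 4 genes, 567 to 605 in ASL9-ox and 2968 to 3286 in wildtype, was mostly that of PYK10 and is no measure of root tissue as a whole. PYK10 and the leaf genes thus moved with the groups, as the 3 called cold genes did, and their part in those results was not tested. For the actin control, the ratio of the 3' over the 5' signal, a measure of RNA integrity, was 1.55 to 1.81 in ASL9-ox and 1.56 to 1.67 in wildtype. For the GAPDH control this ratio was 0.88 to 1.06 in ASL9-ox and 0.87 to 0.93 in wildtype.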

How the data were processed

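The deposited table gave 1 intensity per probe set and array. Per the submitters' processing notes the authors made these intensity values with MAS5 and GCOS, the Affymetrix programs, and the versions are not stated there. The scale was linear, and the mean without the lowest and highest 2% was 100.01 on every array, which shows scaling to a common mean. Names of probe sets came from the annotation of the array platform (13513 with 1 gene, 503 with several, 8794 unnamed here), and 13436 of those with 1 gene matched RefSeq TAIR10.1.

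Signals were transformed to log2(signal + 16). After removal of 64 control probe sets and of the dimmest 25% of the others, 17059 were tested. The comparison used lmFit and eBayes, with an intensity trend, from limma 3.58.1 (R 4.3.3). Two-sided p-values were adjusted by Benjamini-Hochberg over all 17059, with a threshold of 0.05. "Rose" and "fell" mean past that threshold, in ASL9-ox relative to wildtype. Separate cultures are named in no label. The p-values therefore reflect the spread of these samples alone, which may be technical, and 3 arrays per group limit the precision. The fit was tested on simulated data.

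The members and lists were chosen with earlier results of these data known. List genes were matched by symbol or synonym, with the brightest probe set per gene. Named genes are the 4 members, the tested genes of the lists (except the leaf list) and the 3 nearest genes per member; genes chosen later are marked as such. The alternatives covered scaling, the number added, the filter, moderation, weights per array, a block for the replicate number, the threshold and leaving out each array. Figures were drawn with matplotlib 3.10.9.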

Additional observations from a re-analysis of the deposited data

How the results depend on the processing

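COR15A, COR15B and LTI30 passed in the same direction under all 18 alternatives, and COR47 missed the threshold under all 18. Their log2 fold changes ranged from 1.15 to 1.84 (COR15A), 2.14 to 3.47 (COR15B), -2.94 to -1.74 (LTI30) and -0.20 to -0.07 (COR47). When each array in turn was left out, these were 1.37 to 1.84, 2.68 to 3.23, -2.55 to -2.44 and -0.13 to -0.07. The number of probe sets that rose was 2353 with centring on the hybridization controls and 2540 at a threshold of 0.01, in place of 4203. With centring on those controls 3100 fell, so 43.2% of calls were higher in place of 59.2%. In the fit with a replicate block the log2 fold change of LTI30 stayed at -2.49 (adjusted p = 4.02e-06), no call among the 4 genes changed, AT2G44060 and RTH missed the threshold (0.0769 and 0.0549), and 3561 probe sets rose and 2613 fell. The pairing check gave correlations of -0.12, -0.06 and 0.02 between the deviations of same-numbered arrays, and 0 of 6 arrays correlated best with their own number, so no pairing was assumed.

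The 38 other named genes gave 632 values under up to 17 alternatives. Of these, 586 kept their direction and side of the threshold, 33 lost the call, 1 gained it and 12 changed sign, all 12 in genes that did not pass. With centring on the hybridization controls EXPA18 was at -0.0043 and DI21 at -0.045. The other sign changes came from leaving out 1 array. The ranges were -0.075 to 0.31 (EXPA18), -0.054 to 0.19 (DI21), -0.14 to 0.031 (TIC), -0.62 to 0.061 (STZ), -0.18 to 0.012 (SRC2), -1.48 to 0.26 (LEA), -2.12 to 0.033 (AT3G15670) and -2.09 to 0.24 (OLEO3). RTH, with an adjusted p of 0.0472, missed the threshold under 11 of 17. For changes other than those made by leaving out wildtype replicate 2 or by the number added, the cause was not tested. Signals near or below 16 could not be set against background.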
